A study of Mus musculus with 28 samples.

Results

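The macrophage polarization genes followed here were Nos2, Mrc1, Cd163, Igf1, Pparg and Il10, taken by their symbols from the deposited table. These 6 genes had 7 of the 648 assays and were among 584 gene symbols, since Pparg was measured by 2 assays. The labels describe porous polycaprolactone scaffolds implanted subcutaneously in BALB/c females, which fill with host immune and stromal cells and were called a synthetic niche. Transcripts were measured by quantitative PCR on an inflammation panel, with 1 scaffold from each of 28 mice, which the series calls biological replicates. The 14 tumor-bearing mice had been inoculated with 4T1-luc2-tdTomato cells, a labelled line of mouse mammary carcinoma, and were taken at day 7 (3 mice), day 14 (8 mice) and day 21 (3 mice) after inoculation. The 14 healthy mice carried the same scaffold and were taken on the matched days with the same numbers. The tumor line is listed for healthy mice too, so the groups rest on the stated condition at analysis.

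Macrophages take on different states according to the signals around them. Interferon gamma and bacterial products drive a classical, microbicidal state marked by the nitric oxide synthase Nos2, while interleukin 4 and interleukin 13 drive an alternative state with mannose receptor and scavenger receptors on the surface. Tissue repair around implanted materials is known to involve both, and the labels used in vitro do not divide cells in tissue cleanly.

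Levels are given as log2 of the authors' normalized ratio, where 0 is the mean of the reference genes in the same sample and 1 unit is a 2-fold change. All genes of a sample share that mean. Of 18144 reactions 2244 (12.4%) gave no quantification cycle (Cq, the PCR cycle of detection), and samples had a value for 475 to 587 assays. The member assays gave a value in 26 to 28 of 28 samples. Their median Cq ran between 17.5 for Mrc1 and 26.4 for Il10. Levels of different assays were not compared as amounts, because assay efficiency is unknown. All 7 macrophage and monocyte marker genes of the panel (C1qa, C1qb, Ccr2, Cd14, Cx3cr1, Itgam and Siglec1) were detected in 26 to 28 samples. Neutrophil markers were higher in tumor-bearing mice in 9 of 9 tested assays at day 14 and in 10 of 10 at day 21. Of all assays, 37.4% of 588 and 49.9% of 573 were higher. Of the neutrophil assays, 9 and 5 passed an adjusted p of 0.05, beside 2.38% and 1.22% of all assays in either direction. Their part in the members' values was not tested. Tumor-bearing mouse 26 of day 21 stood apart, with a summed adipocyte marker level of 894 against 5.01 as the median of its group, most of it from 1 Fabp4 assay at 10.80. Healthy mouse 13 of day 14 had the fewest assays with a value. In these bulk samples fewer cells of a type and less RNA per cell cannot be told apart.

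The clearest pattern among the 6 genes was in time: Nos2 was lower at later days in scaffolds of both conditions. Nos2 encodes the inducible nitric oxide synthase, which makes nitric oxide from arginine in classically activated macrophages. At day 7, Nos2 levels were -6.19, -6.20 and -4.40 in tumor-bearing mice and -5.35, -4.15 and -5.84 in healthy mice. At day 14 the lowest, median and highest levels were -6.91, -6.62 and -5.59 in 8 tumor-bearing mice and -8.12, -6.85 and -5.25 in 8 healthy mice. By day 21, Nos2 was at -7.02 and -7.07 in the 2 tumor-bearing mice with a value and at -7.20, -7.38 and -6.90 in healthy mice. Every day 21 value lay below every day 7 value, while the day 14 values overlapped both. The third tumor-bearing mouse of day 21, mouse 26, gave no Nos2 signal and was left missing. The mean level over both conditions was -5.35 ± 0.89 at day 7 (SD, n = 6), -6.63 ± 0.66 at day 14 (n = 16) and -7.11 ± 0.18 at day 21 (n = 5).

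**Figure D1:**
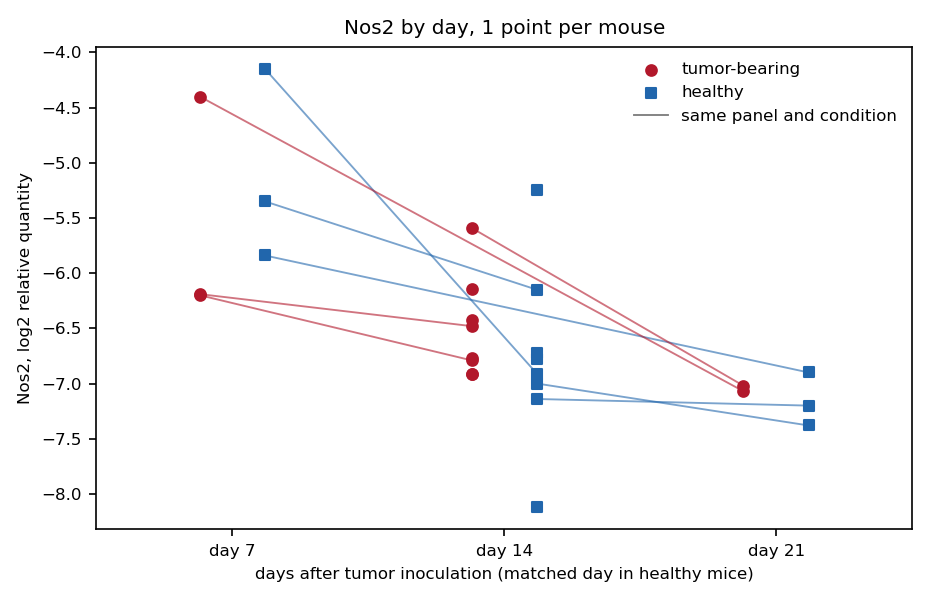
Nos2 level in each mouse (log2 of the authors' normalized ratio, vertical axis) against the day after inoculation or the matched day (horizontal axis), with tumor-bearing mice (circles) left of healthy mice (squares) and lines joining mice of the same panel and condition. The day 21 values, between -7.38 and -6.90, lie below all day 7 values, between -6.20 and -4.15.

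Averaged over both conditions, Nos2 fell by 1.26 on the log2 scale (SE 0.33) at day 14 relative to day 7, a ratio of 0.418 (limma adjusted p = 0.0428). At day 21 relative to day 7 it fell by 1.76 (SE 0.42), a ratio of 0.294 with a 95% interval of 0.161 to 0.537 (adjusted p = 0.0265). The step between days 14 and 21 was -0.51 ± 0.36 on the log2 scale and did not pass the threshold (adjusted p = 0.411). These averages over both conditions were added after the other comparisons had been seen. In the same averages 2.66% of 564 assays passed the threshold at day 14 against day 7 and 2.14% of 560 at day 21 against day 7, with 0.709% and 0.536% passing downwards. Groups did not overlap for 3.21% of 560 assays at day 21 against day 7. At an unadjusted p under 0.05, 3, 1 and 1 of 7 member assays counted at day 14 against 7, 21 against 14 and 21 against 7, beside 18.6%, 19.4% and 16.8% of all assays.

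Within each condition the difference had the same sign and did not pass the threshold. Tumor-bearing mice differed by -0.87 ± 0.46 at day 14 against day 7 (adjusted p = 0.607) and by -1.47 ± 0.62 at day 21 against day 7 (adjusted p = 0.488). Healthy mice differed by -1.64 ± 0.46 (adjusted p = 0.221) and by -2.06 ± 0.55 (adjusted p = 0.208) over the same steps. Leaving out each mouse moved these to between -1.19 and -0.27 and between -1.77 and -0.83 in tumor-bearing mice, with the smallest differences without mouse 6. In healthy mice they lay between -2.04 and -1.13 and between -2.47 and -1.56. Of all assays, 0.175% and 0.529% passed in these tumor-bearing comparisons and 0% in both healthy ones. No other member passed there or at day 21 against day 14, where 0% of all assays passed in tumor-bearing and 0.346% in healthy mice. At an unadjusted p under 0.05, 1 of 7 member assays counted in tumor-bearing mice in each of the comparisons of day 14 with day 7, 21 with 14 and 21 with 7, beside 8.58%, 10.3% and 8.82% of all assays. In healthy mice 3, 0 and 1 counted, beside 12.9%, 15.9% and 10% of all assays. The difference between the conditions in the change to day 14 was 0.77 ± 0.65 (adjusted p = 0.992), and 0% of all assays passed that test. On panels that held several days, Nos2 of the same condition and panel was lower at day 14 than at day 7 in 4 of 4 pairs of mice, lower at day 21 than at day 14 in 3 of 3 and lower at day 21 than at day 7 in 2 of 2.

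The calls for Nos2 depended on how the panels entered the fit and on single mice. With panel as a fixed block the differences were -1.11 at day 14 (adjusted p = 0.659) and -1.87 at day 21 (adjusted p = 0.127) against day 7, and neither passed. Without healthy mouse 13, day 14 against day 7 was -1.24 (adjusted p = 0.045). Mouse 26 has no Nos2 value, so the fit without it (-1.77, adjusted p = 0.0441) cannot show its influence on the day 21 call. With undetected reactions given the highest Cq seen, which gives mouse 26 a value, day 21 against day 7 was -3.99 (adjusted p = 0.364). Leaving out each mouse gave differences between -1.98 and -1.44 for day 21 against day 7, and 22 of the 26 fits that kept Nos2 passed. Without tumor-bearing mouse 6 of day 7 it was -1.44 (adjusted p = 0.104), and without healthy mouse 2 of day 7 it was -1.52 (adjusted p = 0.0685). It was also lost without healthy mouse 23 (-1.77, adjusted p = 0.0645) or 24 (-1.71, adjusted p = 0.0854) of day 21. For day 14 against day 7, 9 of 28 fits passed, with differences of -1.45 to -0.96. With levels taken relative to C1qa and C1qb, complement genes made by macrophages, the differences were -0.76 (adjusted p = 0.118) at day 14 and -1.64 (adjusted p = 0.16) at day 21 against day 7. No macrophage marker passed the threshold in these day comparisons, for which the nearest, C1qa at day 14, was -0.52 (adjusted p = 0.367). Summed macrophage marker levels (linear ratios) ran over 8.17 to 11.7 at day 7, 4.29 to 10.2 at day 14 and 5.83 to 9.95 at day 21. Summed neutrophil marker levels ran over 1.08 to 2.35 at day 7, 0.327 to 6.5 at day 14 and 1.92 to 9.93 at day 21. At day 21 against day 7, 2 of 9 neutrophil assays rose, Ela2 (31.6-fold, adjusted p = 0.00228) and Prtn3 (13.1-fold, adjusted p = 0.0265), beside 2.14% of all assays in either direction. All 9 were above 0, beside 60.7% of 560 assays. The part of neutrophil transcripts in the Nos2 values was not tested.

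Tumor-bearing and healthy mice were compared next, to ask whether the tumor changed the polarization genes in the scaffold. None of the 7 member assays passed the threshold on any day or in the mean of the days, where 0% of 565 assays passed at day 7, 2.38% of 588 at day 14, 1.22% of 573 at day 21 and 2.5% of 559 in the mean. At an unadjusted p under 0.05, limma counted 0, 0, 1 and 0 of the 7 members in these comparisons, beside 2.12%, 10.5%, 9.08% and 8.77% of all assays. Exact permutation tests at day 14 counted 0 of 7, as did exact sign-flip tests over the same-panel pairs of all days. The share of all assays under these exact tests is not given here. The permutations took no account of panel, although panel D held only healthy and panel G only tumor-bearing mice of day 14. The sign-flip tests of single days cannot go below 0.125 and are not counted. At days 7, 14 and 21 the member assays had median differences of 0.19, -0.01 and 0.32, beside 0.03, -0.08 and -0.00 over all assays. The change of the condition effect between days passed for 0 of 7 members and 0% of all assays in all 3 such tests, with 0 of 7 members at an unadjusted p under 0.05 beside 3.93%, 5.43% and 3.72% of all assays. The groups of 3 mice at days 7 and 21 limit these tests, and the intervals given below show the sizes that the data allow.

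**Figure D2:**
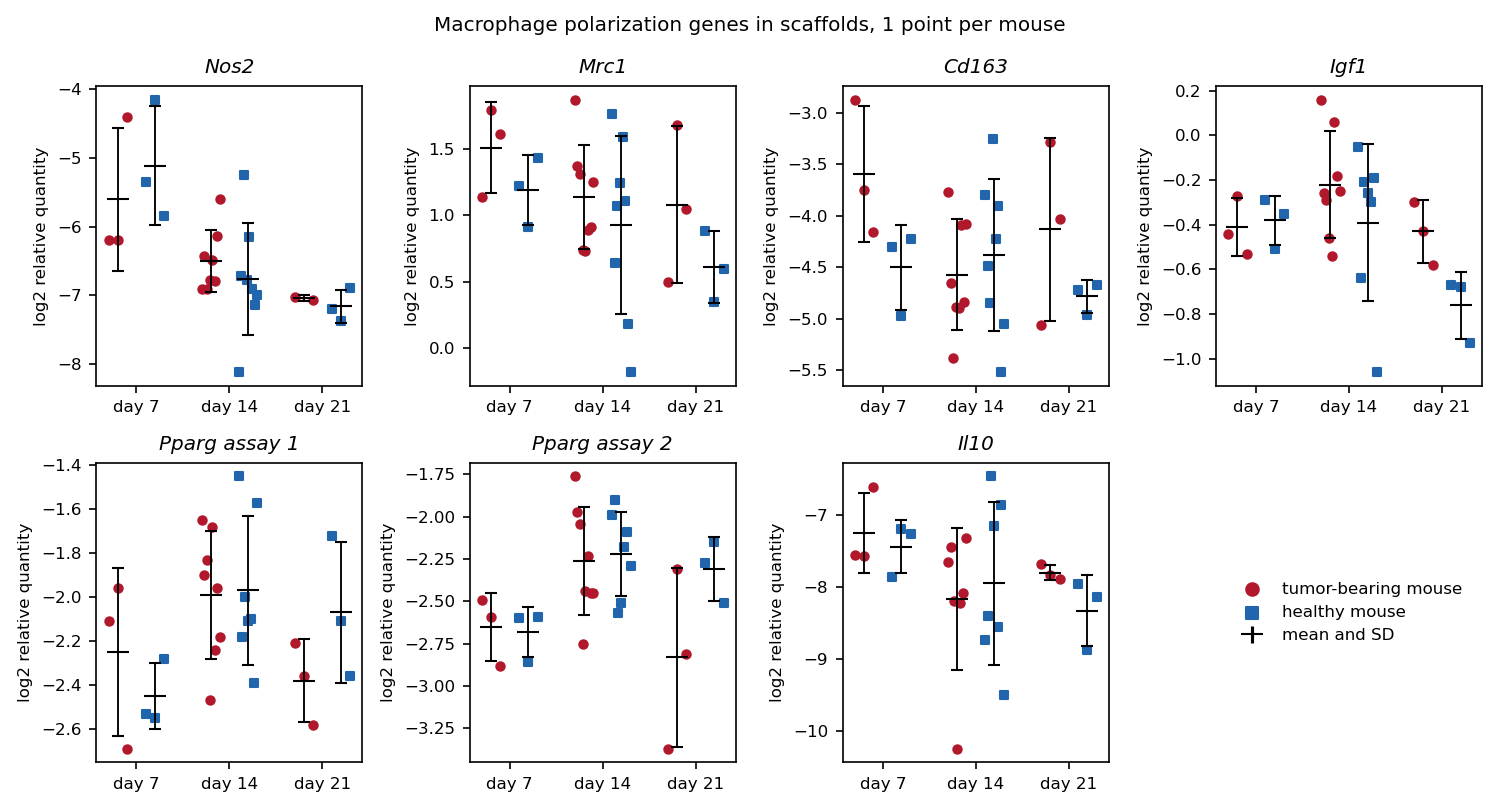
Level of each member assay in each mouse (log2 of the authors' normalized ratio, vertical axes) by day, tumor-bearing left of healthy, with the mean and SD of each group as black bars. Il10 and Nos2 scatter most within groups (pooled SD 0.86 and 0.69), and tumor-bearing and healthy values overlap in most comparisons.

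**Figure D3:**
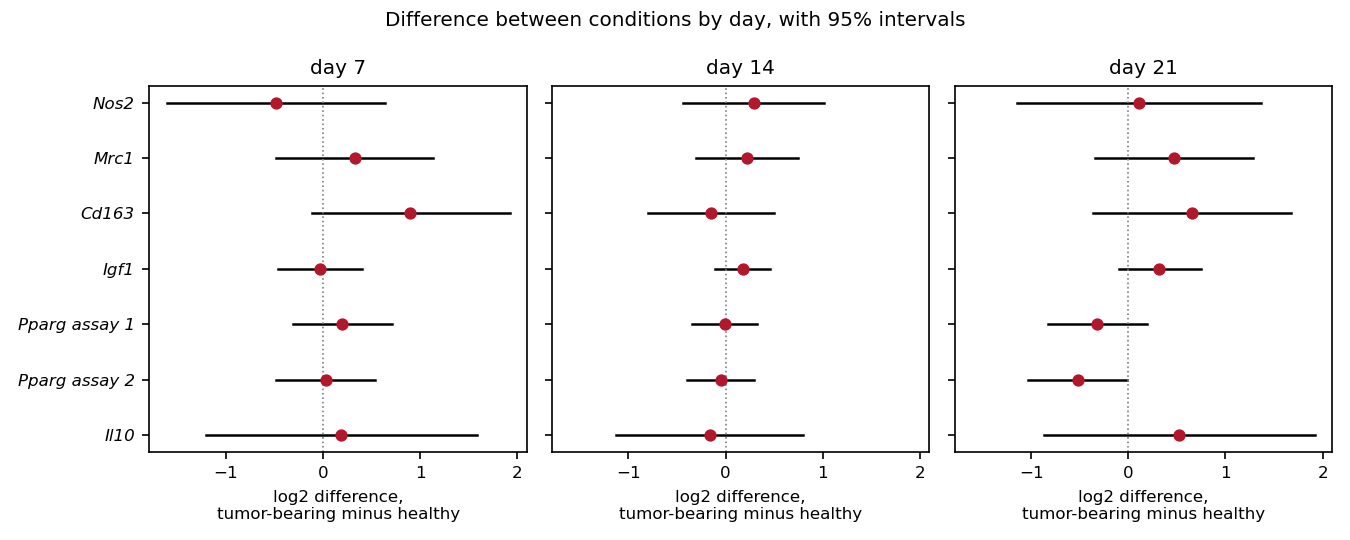
Tumor-bearing minus healthy difference of each member assay (log2) at each day, with 95% intervals from limma. Only the day 21 interval of the second Pparg assay, -1.03 to -0.01, leaves out 0 before adjustment.

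For Nos2, tumor-bearing minus healthy was -0.48 ± 0.54 on day 7 (95% interval -1.61 to 0.64), 0.29 ± 0.35 on day 14 (-0.44 to 1.01) and 0.11 ± 0.61 on day 21 (-1.15 to 1.37). All 3 intervals held 0, and the values of the conditions overlapped on each day. At day 14, where 0.68% of 588 assays had groups that did not overlap, all members overlapped.

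Cd163, the haemoglobin scavenger receptor of tissue macrophages, gave the largest condition difference of the members at day 7. Its levels there were -2.87, -3.75 and -4.16 in tumor-bearing mice and -4.30, -4.97 and -4.22 in healthy mice. All 3 tumor-bearing values lay above all healthy ones, as the groups of 9.2% of 565 assays did in either direction. The difference was 0.90 ± 0.49, a ratio of 1.87 with a 95% interval of 0.926 to 3.78 (adjusted p = 0.997). At day 14 the lowest, median and highest Cd163 levels were -5.38, -4.75 and -3.77 in tumor-bearing mice and -5.52, -4.35 and -3.25 in healthy mice, which overlapped (difference -0.15 ± 0.32, adjusted p = 0.897). At day 21 they were -5.06, -3.28 and -4.03 in tumor-bearing mice and -4.72, -4.96 and -4.67 in healthy mice. Mouse 26 was below all healthy values and the other tumor-bearing mice were above them (difference 0.66 ± 0.49, adjusted p = 0.81, and 1.11 without mouse 26, adjusted p = 0.586). Cd163 was higher in the tumor-bearing mouse in 7 of 10 same-panel pairs, by 0.55 on average (exact sign-flip p = 0.0645, unadjusted; smallest possible 0.00195). Tumor-bearing mice themselves differed by -0.95 ± 0.42 at day 14 against day 7 (unadjusted p = 0.0321, adjusted p = 0.47).

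Mrc1 encodes the mannose receptor CD206, an endocytic lectin used as a marker of alternative activation. Its day 7 levels were 1.14, 1.79 and 1.61 in tumor-bearing mice and 1.22, 0.91 and 1.43 in healthy mice. At day 14 Mrc1 ran from 0.73 through a median of 1.08 to 1.87 in tumor-bearing mice and from -0.18 through 1.09 to 1.76 in healthy mice. At day 21 it was 0.50, 1.68 and 1.05 in tumor-bearing mice and 0.88, 0.35 and 0.60 in healthy mice. The groups overlapped at each day. Differences between tumor-bearing and healthy mice were 0.33 ± 0.39, 0.22 ± 0.25 and 0.47 ± 0.39 at days 7, 14 and 21 (adjusted p = 0.997, 0.766 and 0.875). Leaving out each mouse gave 0.18 to 0.52, 0.04 to 0.34 and 0.14 to 0.75, the last 0.14 without mouse 27 and 0.75 without mouse 26. In the mean of the 3 days Mrc1 stood at 0.34 ± 0.20 (adjusted p = 0.667) and Cd163 at 0.47 ± 0.25 (adjusted p = 0.626). Healthy mice had lower Mrc1 at day 21 than at day 7 in all values, a pattern shown by 26.8% of 570 assays in either direction (difference -0.54 ± 0.40, adjusted p = 0.657). Nos2, Igf1 and Il10 were also lower there in all values, and the second Pparg assay was higher. Cd163 and the first Pparg assay overlapped.

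Igf1, insulin-like growth factor 1, is a growth factor that macrophages of repairing tissue release. It varied least of the members, with a pooled within-group SD of 0.24 against a median of 0.47 over 596 assays. Its day 7 levels were -0.44, -0.27 and -0.53 in tumor-bearing mice and -0.29, -0.51 and -0.35 in healthy mice. Its day 14 levels ran from -0.54 through -0.26 to 0.16 in tumor-bearing mice and from -1.06 through -0.26 to -0.05 in the 7 healthy mice with a value. Its day 21 levels were -0.30, -0.43 and -0.58 in tumor-bearing mice, all above the -0.67, -0.68 and -0.93 of healthy mice. Groups at day 21 did not overlap for 18.3% of 573 assays. The condition differences were -0.03 ± 0.21, 0.18 ± 0.14 and 0.32 ± 0.21 at days 7, 14 and 21 (adjusted p = 0.997, 0.677 and 0.728). Averaged over conditions, Igf1 was -0.28 ± 0.13 at day 21 against day 14 (unadjusted p = 0.0411, adjusted p = 0.226), where 0.876% of 571 assays passed.

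Il10 encodes the cytokine interleukin 10, which dampens macrophage activation. It had the widest spread of the members, with a pooled within-group SD of 0.86. The day 7 levels were -7.56, -7.57 and -6.61 in tumor-bearing mice and -7.86, -7.20 and -7.26 in healthy mice. At day 14 they ran from -10.25 through -8.08 to -7.32 in 7 tumor-bearing mice and from -9.50 through -8.41 to -6.46 in 7 healthy mice. The 3 day 21 values of tumor-bearing mice, -7.68, -7.84 and -7.89, lay above the -7.96, -8.88 and -8.14 of healthy mice. Groups at that day did not overlap for 18.3% of 573 assays in either direction. The condition differences were 0.19 ± 0.67, -0.16 ± 0.47 and 0.52 ± 0.67 at days 7, 14 and 21 (adjusted p = 0.997, 0.921 and 0.96). The day 21 interval of -0.87 to 1.92 spans both directions. At day 14 the difference turned to 0.16 (adjusted p = 0.921) without tumor-bearing mouse 18, which held the lowest value.

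Pparg encodes a lipid-activated nuclear receptor that is needed for alternative activation and is also the master regulator of adipocytes. Its first assay (101 bases) gave -2.11, -1.96 and -2.69 in tumor-bearing and -2.53, -2.55 and -2.28 in healthy mice at day 7. It ran from -2.47 through -1.93 to -1.65 in tumor-bearing and from -2.39 through -2.10 to -1.45 in healthy mice at day 14. At day 21 it was -2.21, -2.36 and -2.58 in tumor-bearing and -1.72, -2.11 and -2.36 in healthy mice. The groups of the first assay overlapped on all days. The second assay (139 bases) gave -2.49, -2.59 and -2.88 in tumor-bearing and -2.60, -2.86 and -2.59 in healthy mice at day 7. Its day 14 levels ran from -2.75 through -2.34 to -1.76 in tumor-bearing and from -2.57 through -2.18 to -1.90 in healthy mice. Its day 21 levels were -3.37, -2.31 and -2.81 in tumor-bearing mice and -2.27, -2.15 and -2.51 in healthy mice. Tumor-bearing mice 26 and 28 were below all healthy mice there and mouse 27 was within their range.

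At day 21 the Pparg difference was -0.32 ± 0.25 by the first assay (adjusted p = 0.823) and -0.52 ± 0.25 by the second (unadjusted p = 0.0455, adjusted p = 0.532), the 1 member counted at that day. At day 7 the assays gave 0.20 ± 0.25 and 0.03 ± 0.25, and at day 14 they gave -0.01 ± 0.16 and -0.05 ± 0.17. The second assay was lower in the tumor-bearing mouse in 7 of 9 same-panel pairs (mean -0.23, exact sign-flip p = 0.0664). Over time and both conditions, Pparg differed by 0.36 ± 0.15 (adjusted p = 0.212) and 0.42 ± 0.15 (adjusted p = 0.149) at day 14 against day 7. Relative to C1qa and C1qb these became 0.93 and 0.87, each with an adjusted p of 0.0497. The same scaling also moved Nos2 upwards, from -1.26 to -0.76. The share of all assays that passed under it is not given here, so these passes are not read as particular to Pparg. The 2 assays differed from each other by a median of 0.28 over 26 samples, with the first higher in 23, and by 1.16 in mouse 26. Without mouse 26 the day 21 difference of the second assay was -0.25 (adjusted p = 0.983).

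Ordered by group mean, the highest level was in a day 7 group for Nos2 (healthy), Mrc1, Cd163 and Il10 (tumor-bearing), and in a day 14 group for Igf1 (tumor-bearing) and both Pparg assays (healthy). The lowest was in healthy mice of day 21 for Nos2, Mrc1, Cd163, Igf1 and Il10. Neighbours in the order differed by less than the larger of their SDs in 5 of 5 steps for 5 assays and in 4 of 5 for Igf1 and the second Pparg assay. The whole range of group means was 2.05 for Nos2, 1.19 for Cd163, 1.08 for Il10, 0.90 for Mrc1 and 0.48 to 0.61 for Igf1 and Pparg. The log2 difference of Nos2 minus Mrc1 within a mouse averaged -6.70 ± 1.05 at day 7 (SD, n = 6), -7.66 ± 0.85 at day 14 (n = 16) and -8.03 ± 0.45 at day 21 (n = 5).

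Among mice of the same group, Mrc1 varied with Igf1 and with Cd163. Deviations from the 6 group means were correlated for all 21 pairs of member assays, with p from 100000 permutations within groups and adjustment over the pairs. Mrc1 and Igf1 had r = 0.68 over 27 mice (adjusted permutation p = 0.0421) and rho = 0.57 (adjusted permutation p = 0.0678). Without the 2 mice farthest from the median of Mrc1 it was 0.45, and with panel means removed it was 0.76. Within conditions it was 0.38 in 14 tumor-bearing and 0.87 in 13 healthy mice, a difference that was not tested. Mrc1 and Cd163 had r = 0.61 over 28 mice (adjusted permutation p = 0.0421) and rho = 0.61 (adjusted permutation p = 0.0678), 0.51 without the 2 farthest mice and 0.60 with panel means removed. Cd163 and Igf1 had r = 0.47 (adjusted permutation p = 0.0938) and rho = 0.43 (adjusted permutation p = 0.147), which did not pass. Nos2 and the second Pparg assay went opposite ways, with r = -0.49 over 26 mice (adjusted permutation p = 0.0421), rho = -0.46 (adjusted permutation p = 0.147), -0.39 without the 2 farthest and -0.41 with panel means removed. Nos2 and Mrc1 showed no such relation, with r = -0.05 (adjusted permutation p = 0.921) and rho = -0.07 (adjusted permutation p = 0.88). The first Pparg assay did not pass with Nos2, at r = -0.39 (adjusted permutation p = 0.228) and rho = -0.33 (adjusted permutation p = 0.317). The 2 Pparg assays had r = 0.44 with each other (adjusted permutation p = 0.0938), which did not pass either. All values of a mouse share its reference mean. With raw Cq centred on the sample median instead, r was 0.81 for Mrc1 and Igf1 and 0.67 for Mrc1 and Cd163. It was -0.42 for Nos2 and the second Pparg assay.

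**Figure D4:**
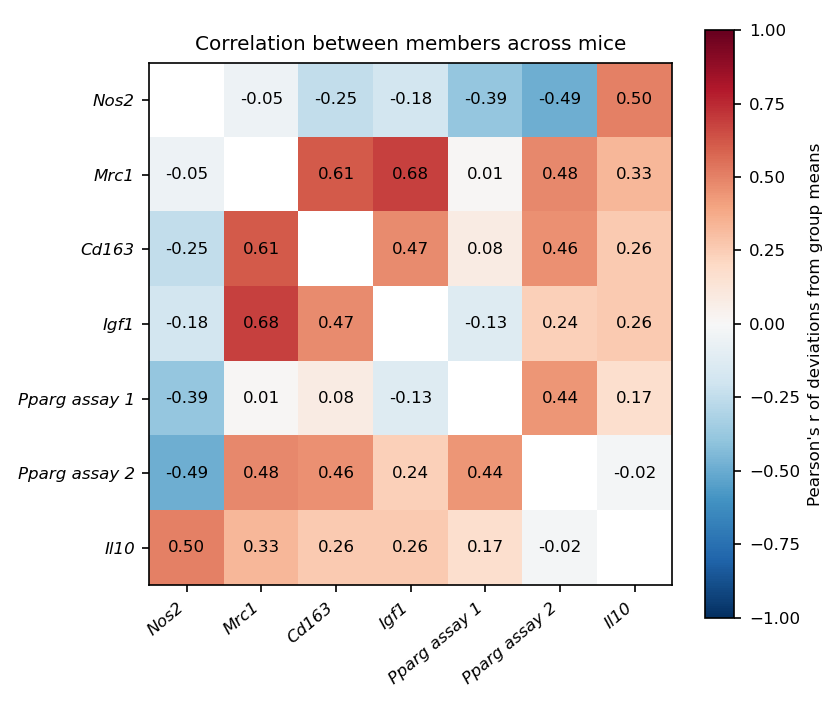
Pearson correlation of within-group deviations for each pair of the 7 member assays (colour and printed value, on a scale from -1 to 1). Mrc1 with Igf1 (0.68) and with Cd163 (0.61) are the highest, and Nos2 with the second Pparg assay (-0.49) is the lowest.

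The genes most like each member were read as a description, over at least 24 mice and about 540 assays, with no test. For Mrc1 they were Stab1, a scavenger receptor of macrophages and sinusoidal endothelium (r = 0.87 over 28 mice), Actb (0.78) and Hmox1, the haem-degrading enzyme (0.70). Cd163 was most like Stab1 (0.65), and Igf1 was most like Hmox1 (0.71). Stab1 was thus among the nearest genes of Mrc1, Cd163 and Igf1. Nos2 was most like Grem1 (0.64), the second Pparg assay like Kitl (0.81) and Il10 like Aoah (0.67).

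The promoters of Mrc1, of Igf1 and Cd163, which were correlated with it, and of Stab1, the gene most like it, are shown as DNA letters. Each window has 250 bases before and 50 after the annotated start, 5′ to 3′ on the gene's strand, from RefSeq on GRCm38.p6. Capitals mark GAGGAA or its reverse complement TTCCTC, the core bound by PU.1, a transcription factor of myeloid cells. The windows are Mrc1 on chr2:14229164-14229463 (plus strand), Cd163 on chr6:124304401-124304700 (plus), Igf1 on chr10:87860861-87861160 (plus) and Stab1 on chr14:31168592-31168891 (minus).
Mrc1: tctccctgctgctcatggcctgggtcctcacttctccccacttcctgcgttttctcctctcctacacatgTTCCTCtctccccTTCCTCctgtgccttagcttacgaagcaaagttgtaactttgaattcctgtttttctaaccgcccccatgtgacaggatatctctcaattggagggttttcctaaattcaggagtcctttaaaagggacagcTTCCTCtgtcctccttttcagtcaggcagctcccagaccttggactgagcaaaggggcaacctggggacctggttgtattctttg
Cd163: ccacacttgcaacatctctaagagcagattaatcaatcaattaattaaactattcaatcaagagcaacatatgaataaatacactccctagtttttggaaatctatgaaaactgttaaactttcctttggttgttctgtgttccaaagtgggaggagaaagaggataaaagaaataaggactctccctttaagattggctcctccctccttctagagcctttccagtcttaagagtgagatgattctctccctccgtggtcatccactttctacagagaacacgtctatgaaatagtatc
Igf1: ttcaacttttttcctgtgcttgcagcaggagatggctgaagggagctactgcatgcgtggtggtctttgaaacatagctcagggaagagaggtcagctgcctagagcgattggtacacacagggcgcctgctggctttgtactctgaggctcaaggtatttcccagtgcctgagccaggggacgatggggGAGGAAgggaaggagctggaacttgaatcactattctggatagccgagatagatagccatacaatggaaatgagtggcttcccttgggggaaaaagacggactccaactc
Stab1: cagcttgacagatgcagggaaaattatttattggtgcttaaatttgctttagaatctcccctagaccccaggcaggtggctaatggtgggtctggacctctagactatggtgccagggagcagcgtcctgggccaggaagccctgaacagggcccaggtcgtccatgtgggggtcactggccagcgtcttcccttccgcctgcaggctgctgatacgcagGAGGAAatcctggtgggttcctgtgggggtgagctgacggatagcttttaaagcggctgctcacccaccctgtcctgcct
The motif occurs 3 times in the Mrc1 window, once each in those of Igf1 and Stab1, and not in that of Cd163. Among all 32851 windows of the same length 28.3% hold it on either strand. The half-sites TTC and GAA with 4 bases between them (a STAT6 site, in 6.95% of windows) or 3 bases (a gamma-activated site, in 8.3%) and the TATA box TATAAA (in 13.6%), searched on both strands, are not in these 4 windows. Of the 6 member genes 4 had a window, and a match says only that these letters are there.

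Variation of Nos2 and Pparg within groups went with some adipocyte transcripts in opposite directions. Over 91 correlations of members with markers of adipocytes and macrophages, Nos2 had r = -0.74 with Cfd, the adipsin gene (adjusted permutation p = 0.0267), and rho = -0.58 (adjusted permutation p = 0.0702). With Adipoq, which encodes adiponectin, Nos2 had r = -0.71 (adjusted permutation p = 0.0358) and rho = -0.57 (adjusted permutation p = 0.0702). Without the 2 mice farthest out these were -0.54 and -0.56, and with panel means removed -0.77 and -0.72. The second Pparg assay had r = 0.61 and rho = 0.73 with Adipoq (adjusted permutation p = 0.00455 for both), 0.70 without the 2 farthest and 0.60 with panel means removed. Nos2 was negative with 6 of 6 adipocyte assays, of which 2 passed by r and 0 by rho. With the 2 Fabp4 assays its r was only -0.09 and -0.18. It was positive with 7 of 7 macrophage assays, of which 0 passed. Mrc1 and Igf1 each passed by rho with 1 of 7 macrophage assays, C1qa, and with 0 by r. Mrc1 had rho = 0.56 (adjusted permutation p = 0.0335) and r = 0.47 (adjusted permutation p = 0.309). Igf1 had rho = 0.58 (adjusted permutation p = 0.0335) and r = 0.46 (adjusted permutation p = 0.118). With C1qb, r was -0.11 for Mrc1 and -0.06 for Igf1. Cd163, Il10 and both Pparg assays passed with 0 of 7. The first Pparg assay was positive with 6 of 6 adipocyte assays and the second with 5 of 6 (r = -0.06 with 1 Fabp4 assay). The share of all assays with these signs, or past the threshold, is not given here. These counts are therefore not read as particular to adipocyte or macrophage markers.

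Adipocyte marker levels varied widely between scaffolds. Adipoq ran from -11.08 to -0.19 and Cfd from -10.65 to 0.03 over all mice. Summed over 5 adipocyte genes, the highest value was 9.47 in tumor-bearing and 6.33 in healthy mice at day 7, and 6.81 in tumor-bearing and 29.8 in healthy mice at day 14. At day 21 the sums were 4.56, 5.01 and 894 in tumor-bearing mice, and between 4.24 and 5.37 in healthy mice. The 894 was that of mouse 26 and came mostly from 1 Fabp4 assay at 10.80. The other Fabp4 assay reached at most 5.27 in any mouse. Adipoq and Cfd of mouse 26 were below their group means, by deviations of -0.79 and -1.13. Fabp4 weighs most in these sums, with medians of 2.56 and 1.92 beside -3.51 for Cfd and -4.72 for Adipoq. The part of adipocytes in the Nos2 and Pparg values was not tested.

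**Figure D5:**
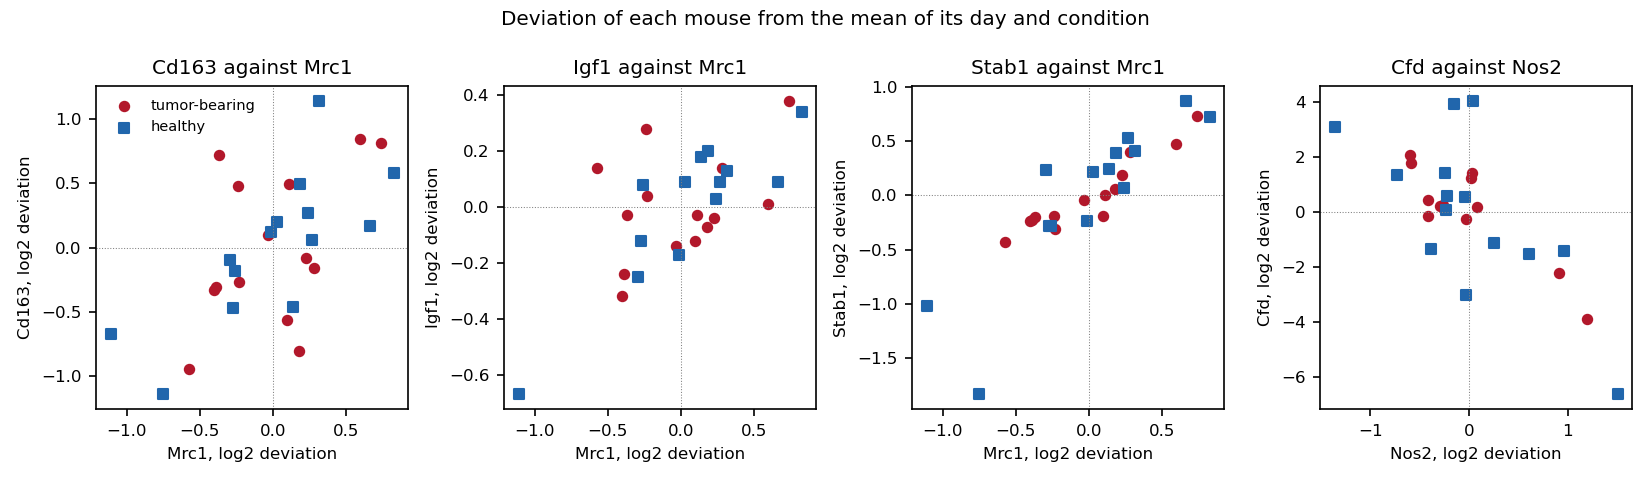
Deviation of each mouse from its group mean (log2) for Cd163, Igf1 and Stab1 against Mrc1 and for Cfd against Nos2, tumor-bearing and healthy mice apart. Stab1 follows Mrc1 most closely (r = 0.87), and Cfd runs against Nos2 (r = -0.74).

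The other genes of the same pathways were described by counts, in the mean tumor-bearing minus healthy difference of the 3 days. Of 22 assays for 15 classical activation genes, 0 rose and 1 fell, the T cell chemoattractant Ccl5 (-0.71 ± 0.16, adjusted p = 0.0141), and the median difference was -0.33 beside -0.05 over all assays. At day 21 their median was -0.81 beside -0.00, with 1 of 22 assays above 0 beside 49.9% of 573, and none past the threshold. The assays share mice and some share a gene, and they were not tested as a set. Of 15 assays for 14 alternative activation genes, Chi3l3, a secreted chitinase-like protein, rose (1.72 ± 0.36, adjusted p = 0.00617) and the chemokine Ccl22 fell (-0.69 ± 0.15, adjusted p = 0.0071), with a median of -0.00. No assay passed in the interferon gamma and nitric oxide list (12 assays), the IL-4 and IL-13 list (8), the IL-10 list (5), the PPAR and lipid list (3) or the scavenger receptor list (3). In the IGF list the only assay, for the binding protein Igfbp4, was at -0.15 (adjusted p = 0.754).

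Over time and averaged over both conditions, classical activation genes passed in 0 of 22 assays in all 3 day comparisons. Il4ra, the receptor chain for interleukins 4 and 13, fell by 0.54 (SE 0.13) at day 14 against day 7 (adjusted p = 0.0414). It was the 1 of 8 IL-4 and IL-13 assays and the 1 of 15 alternative activation assays to pass there, beside 2.66% of all assays. Of those 8 assays 6 were above 0, with a median of 0.06 beside 0.05 over all assays. Clec7a, the beta-glucan receptor dectin-1, rose by 0.56 ± 0.14 at day 21 against day 14 (adjusted p = 0.049) and by 0.64 ± 0.16 at day 21 against day 7 (adjusted p = 0.0338). In each it was the 1 of 15 alternative activation assays to pass, beside 0.876% and 2.14% of all assays. Nos2 was thus the only member to pass in these day comparisons.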

How the data were processed

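Per the labels' protocols, RNA of frozen scaffolds (RNA integrity number 8.2 to 9.7) was reverse transcribed and run on 7 OpenArray panels, called A to G here, of which D held only healthy and G only tumor-bearing mice of day 14. The authors deposited raw Cq scores per the file headers, normalized ratios on a linear scale, and a table of condition fold changes without errors, not printed here. The deposited ratios matched raw Cq relative to the mean of 5 reference assays (within 3.0e-05 cycles), whose names are not reported here; the cycle-calling software is not given in the sources used. Log2 of the ratios was taken here. Assays with a value in at least 50% of the samples of a group (609) were tested over all 28 samples with limma 3.58.1 in R 4.3.3 (6 group means, moderated variance, panel as a random block by statmod 1.5.0, correlation 0.0535), and each group of a contrast needed 2 values. Missing reactions stayed missing. P-values were adjusted by Benjamini-Hochberg over all assays of a contrast at 0.05, and ± after a difference is the standard error. Correlations, exact two-sided tests and figures used Python 3.11.15 and scipy 1.17.1. The fit was tested on simulated data with planted differences between conditions. The comparisons between days, which hold the Nos2 calls, were not covered by that simulation. Members were every assay of the 6 symbols; listed genes were named where past the threshold or among the 2 smallest p-values of a list, and Stab1, Grem1 and other near genes by the 3 highest correlations. Members and lists were chosen with earlier results of these data known. Alternatives were other normalizations, filters, treatment of missing reactions, panel terms and leaving out each mouse; the averages over both conditions, the scaling to C1qa and C1qb and that to all complete reference assays were chosen after seeing the data. Precision is limited by the number of mice.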

Additional observations from a re-analysis of the deposited data

Results flagged for a closer look

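Il10 in tumor-bearing mouse 18 of day 14 was at -10.25, and the other 6 values of its group ran from -8.23 to -7.32. The gap to the next value took up most of the group's range. Chance gives such a gap in about 1 in 20 groups, and 1 of 14 groups checked had one. Without this mouse the tumor-bearing minus healthy difference of Il10 at day 14 was 0.16, against -0.16 with it, and neither passed the threshold.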

How the results depend on the processing

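In the 13 comparisons of condition and of days within a condition, no member passed the threshold under any alternative run. The tumor-bearing minus healthy sign was kept in all alternatives for Cd163 at day 7 (0.53 to 1.19). At day 14 it was kept for Mrc1 (0.04 to 0.34) and Igf1 (0.05 to 3.32). At day 21 it was kept for Mrc1, Cd163, Il10 and both Pparg assays (-0.78 to -0.25 for the second). In the mean of the days it was kept for Mrc1 and Cd163. The Nos2 call at day 14 against day 7 (-1.26) became 0 members with panel as a fixed block (-1.11), without panels D and G (-1.16), with raw Cq centred on the sample median (-1.31), with undetected reactions given the highest Cq seen (39.699; -1.03), with only the groups compared (-1.26) and with only assays measured in all samples, where Nos2 was not tested, and 2 (both Pparg assays, not Nos2) relative to C1qa and C1qb. At day 21 against day 7 it became 0 with the fixed panel block (-1.87, adjusted p = 0.127), undetected reactions given that Cq (-3.99, adjusted p = 0.364), assays measured in all samples (Nos2 not tested), only the groups compared (adjusted p = 0.0513) and relative to C1qa and C1qb. The share of all assays that passed relative to C1qa and C1qb is not given here. Leaving out single mice gave 0 to 1 members in both comparisons. The day 14 call was lost without tumor-bearing mice 5, 6, 16, 17, 18, 19, 20, 27 or 28 or healthy mice 1, 2, 3, 7, 8, 10, 11, 23, 24 or 25 (adjusted p up to 0.237). At day 21 Nos2 was not tested without mouse 27 or 28. The causes were not tested, except that dropping mice or assays leaves fewer values. Nos2 kept its sign throughout these alternatives. No paired analysis was possible because the groups share no replicate number, and the only pairs, those of mice on the same panel, stand in the report. Having 3 mice per group at days 7 and 21 limits what could be seen.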
